A study of Mus musculus with 6 samples.

Results

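The genes described here encode proteins that detect DNA damage and repair it, and their mRNA was compared between NIH-3T3 cells and a mutated derivative of that line. They were chosen by name from a list of 40 symbols. Of these, 39 matched a row of the 55401 in the expression table, and all 39 passed the filter on low values that left 14209 genes for the test. The spelling Claspn matched no row. Clspn, the mouse symbol of the claspin gene, is given beside the 39 genes and is outside every count of them.

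NIH-3T3 is an established line of mouse embryonic fibroblasts, grown here in serum-containing medium. Poly(A) RNA was sequenced from 3 samples of the parent line, whose genotype is given as WT, and from 3 of the derivative, given as Mutation (MU), with no treatment that sets them apart. Which gene carries the mutation, and whether MU is 1 clone or several, is not in the labels, so that the mutation and other differences between the lines cannot be told apart. The title of the study concerns errors of mitochondrial translation, oxidative stress and arrest of the cell cycle.

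Cells meet DNA damage with a signalling layer and with several repair routes. The kinases ATM and ATR, with CHK1 and CHK2 below them, slow the cell cycle and protect replication forks. Homologous recombination copies an intact sister sequence and works mainly after replication, end joining ligates broken ends at any stage, mismatch repair corrects copying errors, and base excision repair removes oxidized, deaminated or misincorporated bases. Oxidative lesions are mostly handled by the base excision route, and many genes of recombination and checkpoint signalling are transcribed most strongly around S phase in cycling fibroblasts.

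Of the 39 genes, 5 were lower in MU and 0 were higher at an adjusted p under 0.05 (limma, Benjamini-Hochberg over all 14209 genes). The 5 were Ung, Apex1 and Parp1 of base excision and strand break repair, Msh6 of mismatch repair and Chek1 of the checkpoint. Of all tested genes 11.6% were called lower and 7.12% higher, so the 12.8% of members called lower is close to the share among all genes. Before adjustment 10 members (25.6%) had a p under 0.05, all of them with lower means in MU, beside 33.4% of all tested genes, of which 20.1% were lower and 13.2% higher. The median difference of the 39 was −0.17 on the log2(TPM + 1) scale, beside −0.05 for all tested genes, and 27 of them (69.2%) had a lower mean in MU, beside 55.6% of all tested genes. Values of the groups did not overlap, with MU below WT, in 9 members (23.1%, beside 23.0% of all tested genes), and with MU above WT in 1 (2.56%, beside 16.1%). TPM is a level scaled for transcript length and given relative to all transcripts of a library. In bulk RNA, fewer cells that express a gene and less of its RNA per cell cannot be told apart.

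**Figure D1:**
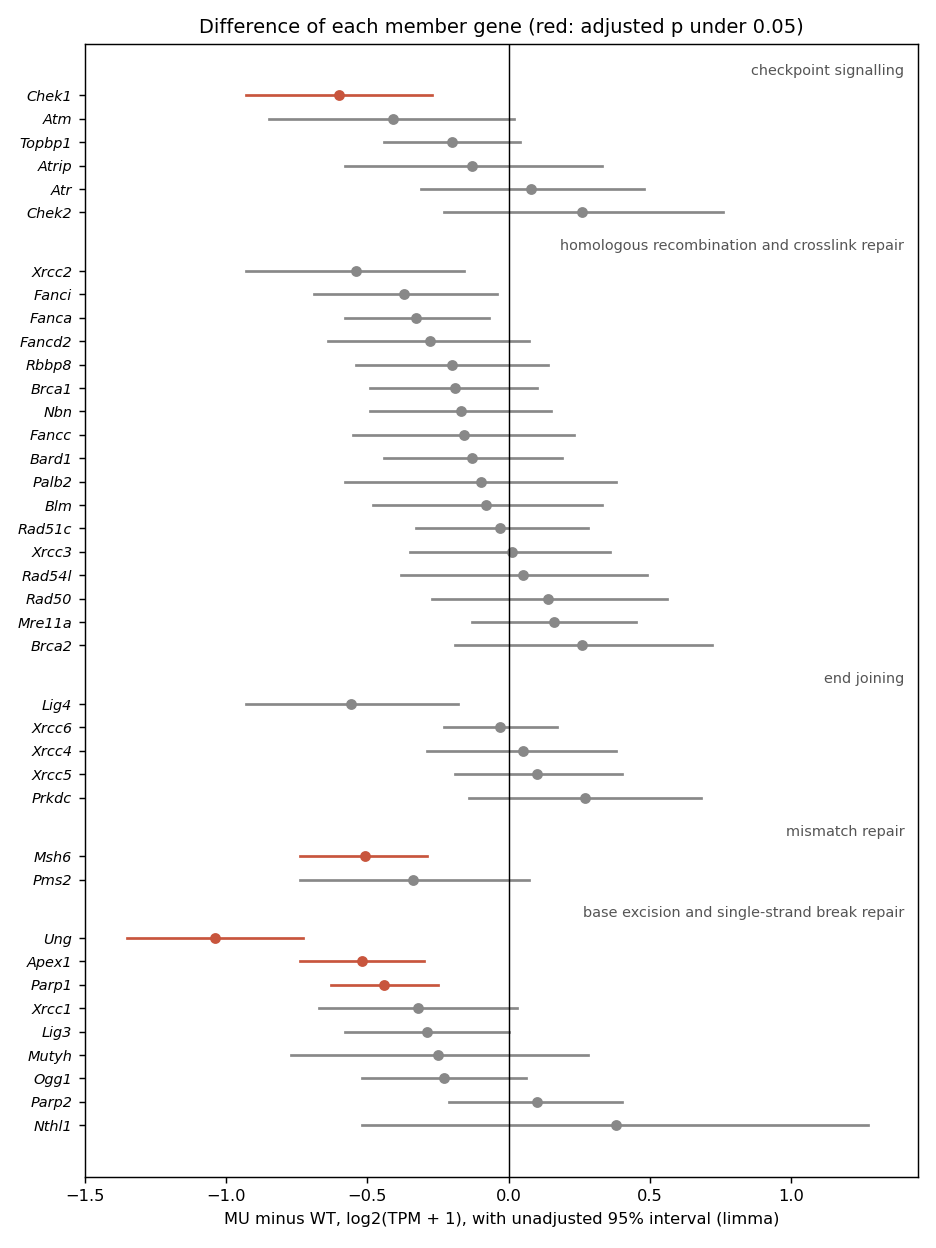
Difference between MU and WT in log2(TPM + 1) for each of the 39 genes, ordered by size within each repair route. Points are the fitted differences, bars their unadjusted 95% intervals from limma, and the 5 genes in red passed at an adjusted p under 0.05, all of them to the left of 0.

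The count of members called lower varied with the library left out. It was 1 without MU replicate 2 or MU replicate 3, 2 without WT replicate 1 or MU replicate 1, and 7 without WT replicate 2 or WT replicate 3. Deviations from each gene's mean over all libraries rose with GC content in WT replicate 2 and fell in WT replicate 3. Their Spearman correlations across genes were 0.33 and −0.25, against −0.12 to 0.17 in the other libraries. Fibroblast markers were present in every library, with 10 of 10 tested. Of these 5 were called higher and 0 lower in MU, beside 7.12% and 11.6% of all tested genes. Their summed level was 8664.9 to 9953.5 TPM in WT against 11301.3 to 11803.3 TPM in MU. Of 30 markers of adipocytes, muscle, epithelium, leukocytes and endothelium, 24 stayed under 1 TPM in every library, and Cidec, Lep, Myod1, Myog, Actc1, Myh6, Cldn4 and Adgre1 were listed at 0 in all of them. The summed level of the adipocyte markers was 18.9 to 22.6 TPM in WT against 12.1 to 13.0 TPM in MU, nearly all of it from Lpl (20.7 ± 2.06 and 12.2 ± 0.379 TPM), with the other 6 under 1 TPM in every library. That of the muscle markers was 1.92 to 4.16 against 6.49 to 8.21 TPM. Epithelial markers summed to 0.790 to 1.54 and 1.60 to 2.31 TPM, and leukocyte and endothelial markers to 3.88 to 6.47 and 4.12 to 6.48 TPM. Among tested markers, 1 of 1 for adipocytes was called lower and 1 of 2 for muscle higher. Of 2 tested for leukocytes and endothelium 1 was called lower (difference −1.31), and the 1 tested for epithelium was not called. The part of these markers in the differences was not tested. Markers of replication and proliferation lay lower in MU, with a median difference of −0.51, beside −0.17 for the 39 genes. Of 24 such markers 18 (75.0%) were called lower and 0 higher in MU, beside 11.6% and 7.12% of all tested genes. Their summed level was 1961.5 to 2077.5 TPM in WT against 1405.3 to 1457.5 TPM in MU. The part of proliferation in the differences below was not tested.

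Promoters were read to see whether the genes that fell share letters that the others lack. RefSeq (GRCm38.p6) gives a window of 300 bases, from 250 before the start to 50 after it, for 33 of the 39 genes. The E2F motif, bound by the factors that switch on S-phase genes, was searched as TTTGGCGC, TTTCCCGC, TTTGCCGC and TTTCGCGC on both strands. It lay in 8 of the 33 genes (24.2%), beside 4.86% of 9600 tested genes with a window and 2.60% of all 27025 genes in the table. Of the 5 genes called lower 1 held it (Msh6, 16 bases after the start), and of the 28 others 7 did. The CCAAT box, searched as CCAAT on both strands, lay in 2 of the 5 (Apex1 and Msh6) and 18 of the 28, beside 44.1% of tested genes. The cell cycle homology region, searched as TTTGAA and TTCGAA on both strands, lay in 1 of the 5 (Apex1) and 2 of the 28, beside 16.5% of tested genes. No motif overlapped another in the stretches printed here. A match is only a match of letters, and a window without one holds no information about the factor.

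The first stretches show 4 of the genes called lower. The last show 3 of the genes that did not pass and hold an E2F motif before their start. Genes that did not pass were printed only with such a match, so the shares above cannot be read from these stretches. Each has 80 bases, is printed 5′ to 3′ on the plus strand of GRCm38.p6 before the start in both RefSeq and GENCODE, and has E2F and CCAAT matches in capitals. For Chek1 the RefSeq window lies inside the GENCODE gene and is not printed. The bases before its GENCODE start were not searched, which limits its place in the motif counts.
Ung (chr5:114130306-114130385): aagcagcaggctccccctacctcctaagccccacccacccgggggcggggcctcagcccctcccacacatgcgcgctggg
Apex1 (chr14:50924869-50924948): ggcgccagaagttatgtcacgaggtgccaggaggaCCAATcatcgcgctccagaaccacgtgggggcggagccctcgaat
Parp1 (chr1:180568811-180568890): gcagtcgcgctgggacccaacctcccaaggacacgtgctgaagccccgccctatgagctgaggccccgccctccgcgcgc
Msh6 (chr17:87974970-87975049): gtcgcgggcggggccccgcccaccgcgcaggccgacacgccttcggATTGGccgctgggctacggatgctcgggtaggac
Chek2 (chr5:110839795-110839874): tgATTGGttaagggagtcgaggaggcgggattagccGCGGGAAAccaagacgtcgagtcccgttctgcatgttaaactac
Brca2 (chr5:150522417-150522496): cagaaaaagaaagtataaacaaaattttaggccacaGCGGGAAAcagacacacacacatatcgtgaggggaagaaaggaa
Topbp1 (chr9:103305135-103305214): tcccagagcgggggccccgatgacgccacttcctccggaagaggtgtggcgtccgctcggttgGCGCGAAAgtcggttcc

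Ung had the largest difference of the members. It encodes uracil-DNA glycosylase, which cuts out uracil left by cytosine deamination or by dUTP incorporation (ENSMUSG00000029591.14, chromosome 5, 114130386 to 114139323, GRCm38). Its level was 13.7, 14.0 and 11.0 TPM in the WT libraries and 5.54, 6.09 and 5.55 TPM in the MU libraries. The groups lay far apart, and the mean fell by 55.6% in MU. The difference was −1.04 on the log2(TPM + 1) scale (SE 0.13, limma adjusted p = 0.00374). Ung passed under every one of the 19 alternatives run. Its printed promoter holds no E2F or CCAAT match.

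Apex1 encodes the main AP endonuclease, which cuts the backbone at a site that has lost its base (ENSMUSG00000035960.14, chromosome 14, 50924968 to 50927139). It had the highest level of the 39 genes, at 152, 155 and 130 TPM in WT against 102, 99.9 and 102 TPM in MU. The MU libraries differed little from each other and all lay below WT. The difference was −0.52 (SE 0.09, limma adjusted p = 0.0124). Parp1 encodes the poly(ADP-ribose) polymerase that senses strand breaks (ENSMUSG00000026496.11, chromosome 1, 180568924 to 180601254). It was at 67.5, 66.8 and 60.8 TPM in WT against 49.0, 46.6 and 47.1 TPM in MU, again without overlap, a difference of −0.44 (SE 0.08, limma adjusted p = 0.0134). Neither Apex1 (limma adjusted p = 0.0513 to 0.0659) nor Parp1 (0.0536 to 0.0754) passed without WT replicate 1 or without any 1 of the MU libraries. With the replicate number as a block, neither gene passed.

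The other genes of this route did not pass. Xrcc1, the scaffold of single-strand break repair, gave 38.6, 40.0 and 28.5 TPM in WT, 25.6, 28.7 and 30.1 TPM in MU, and WT replicate 3 lay among the MU libraries. It did not pass (limma adjusted p = 0.186) but did without WT replicate 3 (0.0324). Lig3, the ligase that binds XRCC1, averaged 27.2 ± 2.64 TPM in WT against 22.0 ± 2.52 TPM in MU (mean ± SD, n = 3, limma adjusted p = 0.145). The glycosylases that act on oxidized bases did not pass either. Ogg1, which removes 8-oxoguanine, was at 19.1 ± 1.94 and 16.1 ± 1.62 TPM (limma adjusted p = 0.232). Mutyh, which removes adenine paired with 8-oxoguanine, was at 5.52 ± 1.37 and 4.50 ± 1.09 TPM (limma adjusted p = 0.486). Nthl1, which removes oxidized pyrimidines, had the widest interval of the members, at 4.79, 7.78 and 2.20 TPM in WT against 5.63, 4.88 and 8.12 TPM in MU, with a difference between −0.52 and 1.27 in its 95% interval. Parp2, the smaller relative of PARP1, was at 23.9 ± 2.31 and 25.7 ± 3.34 TPM (limma adjusted p = 0.642).

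**Figure D2:**
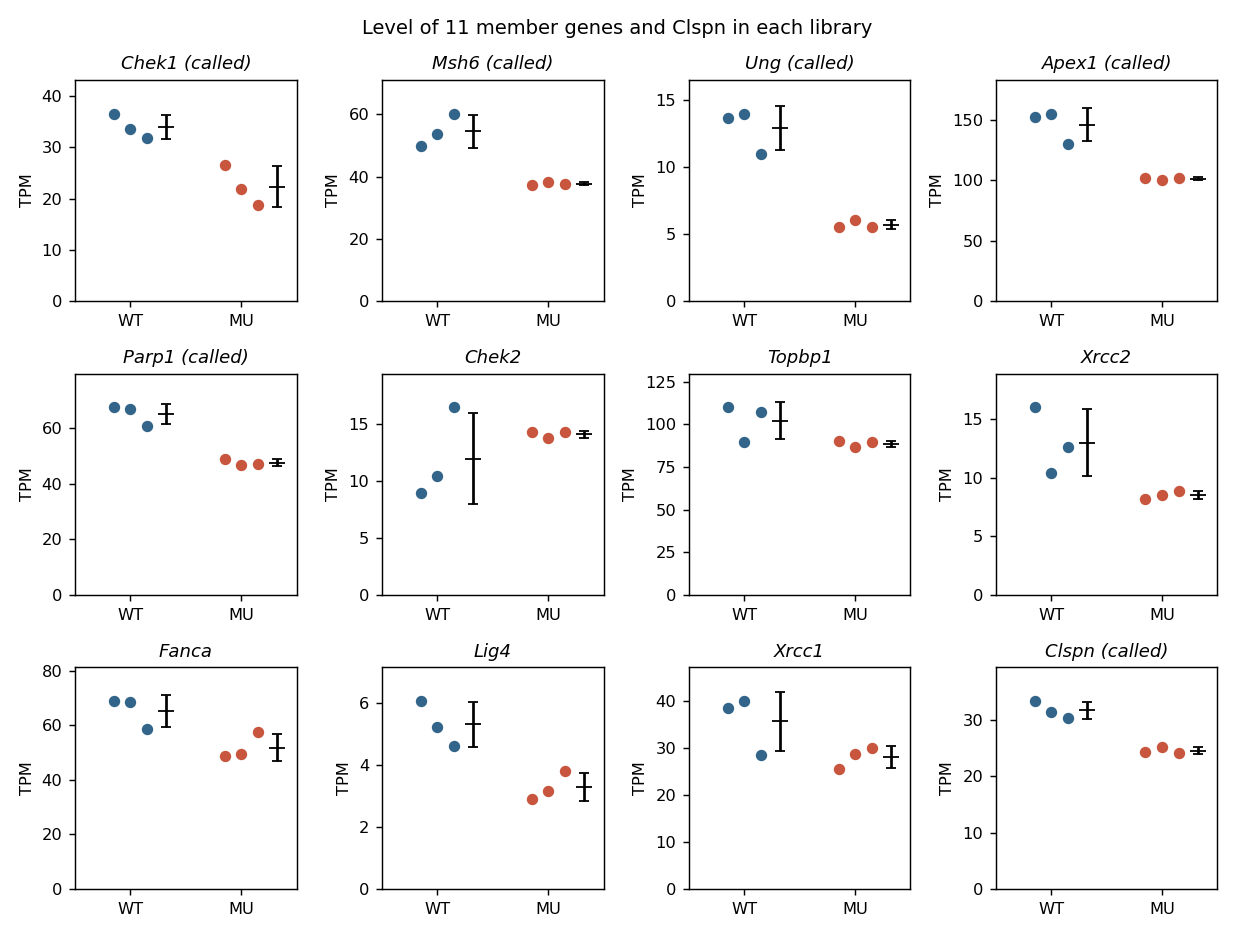
Level in TPM of the 5 members that passed, of 6 that passed under at least 1 alternative, and of Clspn, in each of the 3 WT (blue) and 3 MU (red) libraries. Black marks are the mean and its SD over 3 libraries. In Ung the WT libraries lie between 11.0 and 14.0 TPM and the MU libraries between 5.54 and 6.09 TPM, while in Chek2 WT replicate 3 lies above all MU libraries and the other WT libraries below them.

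In mismatch repair Msh6 was lower. It encodes a protein that recognizes base mismatches and small loops (ENSMUSG00000005370.4, chromosome 17, 87975062 to 87990892). Its level was 49.8, 53.7 and 60.3 TPM in WT against 37.4, 38.3 and 37.7 TPM in MU, without overlap. The difference was −0.51 (SE 0.09, limma adjusted p = 0.0134). It did not pass without any 1 of the MU libraries (0.0596 to 0.0642) or with the replicate number as a block (0.0601). Pms2, an endonuclease subunit that acts after recognition, was at 16.1, 13.0 and 19.2 TPM in WT against 14.3, 10.6 and 12.5 TPM in MU, with overlap (limma adjusted p = 0.218). Its reads may be shared with Rsph10b, which overlaps it on the same strand.

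The checkpoint genes gave 1 call among 6 (16.7% lower), beside 11.6% of all tested genes called lower and 7.12% called higher. Chek1 encodes the kinase CHK1, which ATR activates at stalled forks (ENSMUSG00000032113.16, chromosome 9, 36708482 to 36727065). It was at 36.6, 33.5 and 31.9 TPM in WT against 26.5, 21.9 and 18.7 TPM in MU, so that the highest MU library stayed below the lowest WT library. The difference was −0.60 (SE 0.14, limma adjusted p = 0.0289). It did not pass without WT replicate 1 (0.0959), MU replicate 2 (0.101) or MU replicate 3 (0.0865). Nor did it pass with no filter on low values (0.0659) or with the replicate number as a block (0.0504). Clspn, whose protein bridges ATR and CHK1, was at 33.4, 31.5 and 30.4 TPM in WT against 24.4, 25.3 and 24.1 TPM in MU, again without overlap. Its difference was −0.36 (SE 0.08, limma adjusted p = 0.0287), and it passed under 11 of the 19 alternatives.

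The kinases above CHK1 and their partners did not pass. Atr averaged 13.8 ± 2.40 TPM in WT against 14.6 ± 2.16 TPM in MU (limma adjusted p = 0.772). Atrip, which brings ATR to single-stranded DNA, was at 16.7 ± 2.97 and 15.3 ± 3.40 TPM (limma adjusted p = 0.696), and it shares its strand and locus with Trex1. Topbp1, the activator of ATR, stood at 110, 89.6 and 107 TPM in WT against 90.0, 86.5 and 89.4 TPM in MU. WT replicate 2 lay within the MU values, and Topbp1 passed as lower without that library (limma adjusted p = 0.0252, against 0.217 with it). Atm, the kinase that answers double-strand breaks, was at 15.8, 21.3 and 13.4 TPM in WT against 12.3, 13.7 and 10.7 TPM in MU, with overlap (limma adjusted p = 0.168). Chek2, the kinase below ATM, was at 9.01, 10.5 and 16.5 TPM in WT against 14.3, 13.8 and 14.3 TPM in MU. Here WT replicate 3 stood above the MU libraries, and without it Chek2 passed as higher (limma adjusted p = 0.0374, against 0.429 with it).

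None of the 17 genes of homologous recombination and crosslink repair passed (limma), beside 11.6% of all tested genes called lower and 7.12% called higher. Of the 17, 3 had an unadjusted p under 0.05, each with a lower mean in MU. At that threshold 20.1% of all tested genes were lower. The authors' deposited table gives an adjusted p under 0.05 to 1 of the 17, Xrcc2. The closest in limma was also Xrcc2, a recombination gene, at 16.0, 10.4 and 12.6 TPM in WT against 8.15, 8.53 and 8.83 TPM in MU. The groups did not overlap, with a difference of −0.54 (SE 0.16, limma adjusted p = 0.0597), and it passed without WT replicate 2 (0.0191) and under quantile normalization (0.0485). Fanca, part of the Fanconi core complex that marks crosslinks, was at 68.9, 68.6 and 58.6 TPM in WT against 48.7, 49.5 and 57.4 TPM in MU, with the extremes of the groups nearly touching (limma adjusted p = 0.0808, and 0.0464 without WT replicate 3). Fanci, a subunit of the complex that the core ubiquitinates, was at 14.7, 11.4 and 13.0 TPM in WT against 11.2, 9.42 and 8.96 TPM in MU, without overlap (limma adjusted p = 0.114). Its partner Fancd2 was at 10.2 ± 1.73 and 8.14 ± 0.678 TPM (limma adjusted p = 0.239), and Fancc, another core subunit, at 7.06 ± 1.44 and 6.16 ± 0.594 TPM (limma adjusted p = 0.552).

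The central recombination genes gave no call either (limma). Brca1 was at 21.8, 16.3 and 18.3 TPM in WT against 16.5, 15.6 and 16.6 TPM in MU (limma adjusted p = 0.334), and Bard1, its ring-finger partner, at 6.49 ± 0.807 and 5.84 ± 0.358 TPM (0.559). Brca2, a central mediator of recombination, was at 15.9, 10.2 and 11.8 TPM in WT against 16.7, 16.6 and 12.5 TPM in MU (limma adjusted p = 0.383), and Palb2, which joins BRCA1 to BRCA2, at 7.61 ± 1.85 and 6.99 ± 1.37 TPM (0.774). These values overlapped between the groups in each gene. For the MRN complex, which binds broken ends, Mre11a was at 27.2 ± 3.11 and 30.5 ± 3.16 TPM, Rad50 at 17.3 ± 4.31 and 18.8 ± 0.717 TPM while Nbn was at 28.7, 20.4 and 25.6 TPM in WT against 22.4, 21.6 and 21.5 TPM in MU (limma adjusted p = 0.404, 0.616 and 0.428). Rbbp8, which encodes the resection factor CtIP, was at 26.9, 19.1 and 23.7 TPM in WT against 19.5, 18.6 and 21.8 TPM in MU (limma adjusted p = 0.377). The helicase gene Blm was at 20.4 ± 4.67 and 19.0 ± 1.83 TPM, and Rad54l, a motor that helps strand invasion, at 27.8 ± 6.26 and 28.7 ± 4.31 TPM (0.788 and 0.866). The recombination genes Rad51c and Xrcc3 were at 10.1 ± 1.24 and 9.87 ± 0.784 TPM and at 19.7 ± 3.89 and 19.5 ± 0.451 TPM (0.903 and 0.984).

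End joining gave 0 calls among 5 genes (limma), beside 11.6% of all tested genes called lower and 7.12% called higher. The unadjusted p was under 0.05 for 1 of the 5 (20.1% of all tested genes were lower and 13.2% higher there). The authors' deposited table gives an adjusted p under 0.05 to that same gene, Lig4. Lig4 encodes the ligase of this route and was at 6.07, 5.25 and 4.63 TPM in WT against 2.92, 3.15 and 3.81 TPM in MU. The groups did not overlap, but the difference of −0.56 (SE 0.16) did not pass (limma adjusted p = 0.0520). It passed under quantile normalization (0.0456) and in limma without trend (0.0391). Xrcc4, which stabilizes the ligase, was at 8.22 ± 0.462 and 8.58 ± 1.38 TPM (limma adjusted p = 0.856). The Ku subunits cap broken ends, and neither passed. Xrcc6 (Ku70) was at 41.7 ± 1.86 and 40.9 ± 1.91 TPM, with an interval of the difference from −0.23 to 0.17, and Xrcc5 (Ku80) at 30.3 ± 4.54 and 32.4 ± 1.13 TPM, with an interval from −0.19 to 0.40. Prkdc, the catalytic subunit of DNA-PK, was the member whose MU libraries all lay above WT, at 4.08, 2.72 and 4.25 TPM in WT against 4.43, 4.70 and 4.61 TPM in MU (limma adjusted p = 0.330).

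A p that misses the threshold does not show that a gene was alike in both lines, and the intervals give what the data allow. Of the 34 members that did not pass, 33 had an unadjusted 95% interval inside 1 in either direction on the log2(TPM + 1) scale, the exception being Nthl1, and 14 had one inside 0.5. In 5 of the 34 (14.7%) the interval left out 0, beside 18.0% of all tested genes that did not pass. The authors' deposited table, from a count-based tool, gives an adjusted p under 0.05 with a fall to 7 of the 39 genes (17.9%) and with a rise to 0. Over the genes with an adjusted p in that table the shares were 11.6% lower and 9.42% higher. The 7 were the 5 genes called here, with Xrcc2 (log2 fold change −0.52, adjusted p = 0.0159) and Lig4 (−0.59, adjusted p = 0.00980, both in the authors' deposited table).

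**Figure D3:**
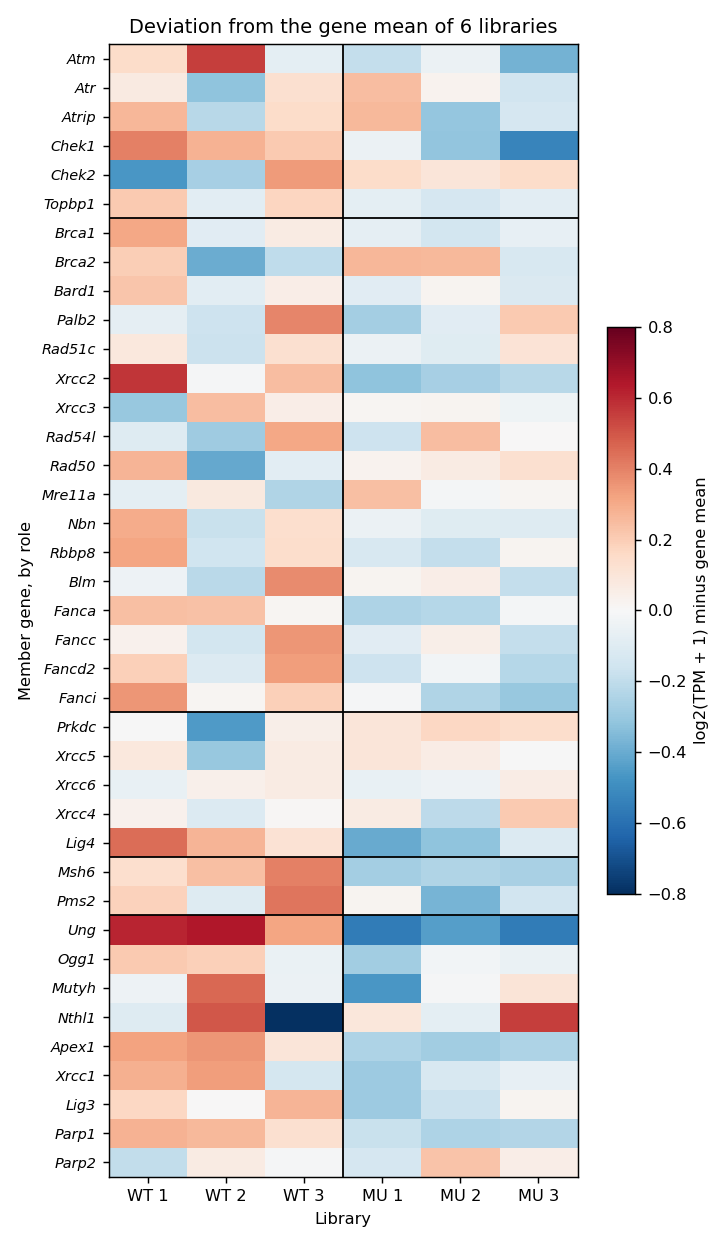
Deviation of log2(TPM + 1) from each gene's mean over 6 libraries, with genes in rows (checkpoint, recombination and crosslink, end joining, mismatch and base excision genes from top to bottom, parted by lines) and libraries in columns. The rows of Ung, Apex1, Parp1, Msh6, Chek1 and Lig4, among others, are red in all 3 WT libraries and blue in all 3 MU libraries, some of them faintly. In most other rows the WT libraries differ among themselves.

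The members, like all tested genes, varied more among WT than among MU libraries. The SD of log2(TPM + 1) was larger in WT for 32 of 39 members (82.1%), beside 71.8% of all tested genes, and their median SD was 0.23 and 0.12, beside 0.21 and 0.12 over all tested genes (WT first). WT replicate 2 was the lowest WT library for 22 members (56.4%, beside 45.6% of all tested genes). The members had a median GC content of 47.0% and a median transcript length of 4248.0 bases, beside 49.0% and 2919.0 bases for all tested genes. With a correction for GC content and length 7 members passed as lower, with Xrcc2 (limma adjusted p = 0.0458) and Fanca (0.0393) added to the 5. Over all tested genes the share called lower rose with the same correction from 11.6% to 14.4%, and among the members from 12.8% to 17.9%.

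Ratios between partners show where related members parted. They are ratios of TPM within a library, were chosen after the values were seen, and are given without a test. No share over other pairs of genes was computed. The ratio of Parp1 to Parp2 was 3.16, 2.58 and 2.47 in WT and 2.19, 1.60 and 1.83 in MU, without overlap. The ratio of Xrcc4 to Lig4 was 1.41, 1.47 and 1.81 in WT and 3.02, 2.25 and 2.58 in MU. The groups were also apart, by less, in the ratios of Chek1 to Chek2 (lowest in WT 1.94, highest in MU 1.85), Nbn to Rad50 (1.32 and 1.23) and Atr to Atrip (highest in WT 0.880, lowest in MU 0.885). For the Ku subunits the ratio of Xrcc5 to Xrcc6 overlapped, at 0.729 ± 0.124 and 0.795 ± 0.0629, as did that of Brca1 to Bard1, at 2.89 ± 0.0705 and 2.79 ± 0.252, and that of Mre11a to Rad50, at 1.66 ± 0.563 and 1.63 ± 0.218.

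The members were also set beside their neighbours on the chromosomes. Some chromosomes were lower in MU as a whole, with a median difference of −0.31 over 747 tested genes of chromosome 8 and −0.20 over 927 of chromosome 5. The median difference of up to 20 protein-coding neighbours on each side, less the median of all tested genes, was −0.42 around Lig4, −0.41 around Xrcc2 and −0.27 around each of Fanca, Brca2 and Pms2. After this median was subtracted, the differences were −0.14 for Lig4, −0.13 for Xrcc2 and −0.06 for Fanca (limma adjusted p = 0.594, 0.625 and 0.776). That of Pms2 went from −0.34 to −0.06 and that of Brca2 from 0.26 to 0.53 (limma adjusted p = 0.841 and 0.111 after it). Around the 5 genes called lower the neighbours' median lay between −0.04 (Apex1) and 0.23 (Parp1), and all 5 passed after the subtraction. Their differences were then −1.14 for Ung, −0.67 for Parp1, −0.59 for Chek1, −0.57 for Msh6 and −0.48 for Apex1. The subtracted medians came from the same libraries and were treated as fixed, so the p-values after subtraction leave out their error. Across the 39 genes the correlation of a member's difference with that of its neighbours was 0.16 (Pearson, a description, since neighbours share the same libraries).

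**Figure D4:**
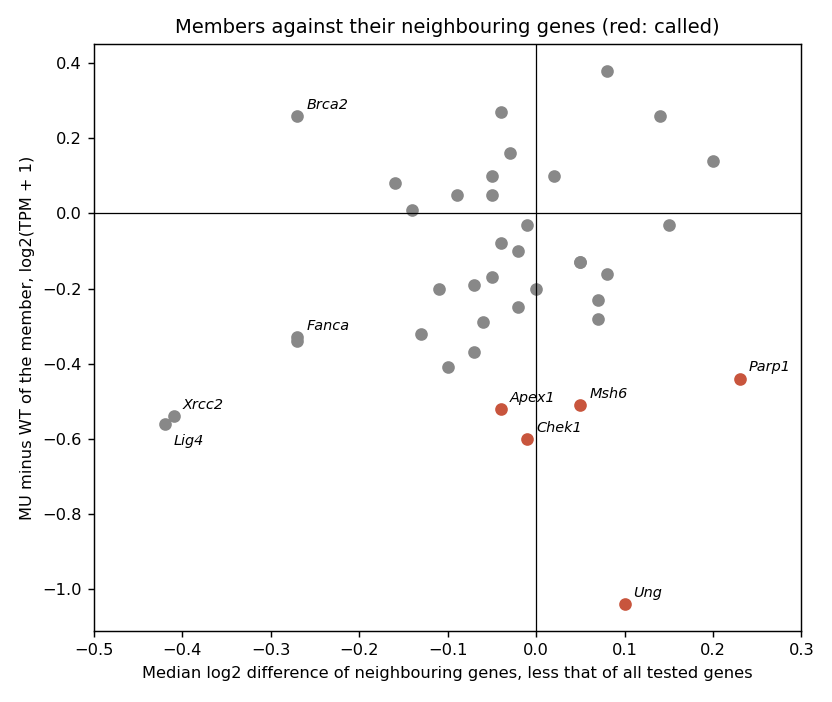
Difference of each of the 39 genes between MU and WT, in log2(TPM + 1), against the median difference of its neighbouring genes less that of all tested genes. The 5 called genes (red) lie at neighbour values from −0.04 to 0.23, while Lig4 and Xrcc2, which did not pass, lie at −0.42 and −0.41.

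A wider set of 122 other genes of the same and neighbouring routes, all tested, gave 13 lower (10.7%, near the share of all tested genes) and 8 higher (limma), with a median difference of −0.05. It gave 5 or 6 lower and 1 or 2 higher without WT replicate 1 or without any 1 of the MU libraries. With other scalings the split was even, at 8 lower and 8 higher once mtDNA-encoded genes were left out of the total, 10 and 10 by median-of-ratios scaling and 9 and 9 by quantile normalization. Of all tested genes 11.6% were called lower and 7.12% higher. By route, 2 of 19 other checkpoint genes were lower and 1 higher. Among other recombination genes 1 of 27 was lower and 1 higher, and 3 of 14 other crosslink genes were lower. Of 17 other base excision genes 4 were lower and 1 higher, of 20 nucleotide excision genes 3 were lower and 2 higher, and of 12 genes of lesion bypass and direct reversal 0 were lower and 3 higher. Neither the 8 other end joining genes nor the 5 other mismatch repair genes gave a call (limma). Unadjusted p was under 0.05 for 1 gene of each.

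**Figure D5:**
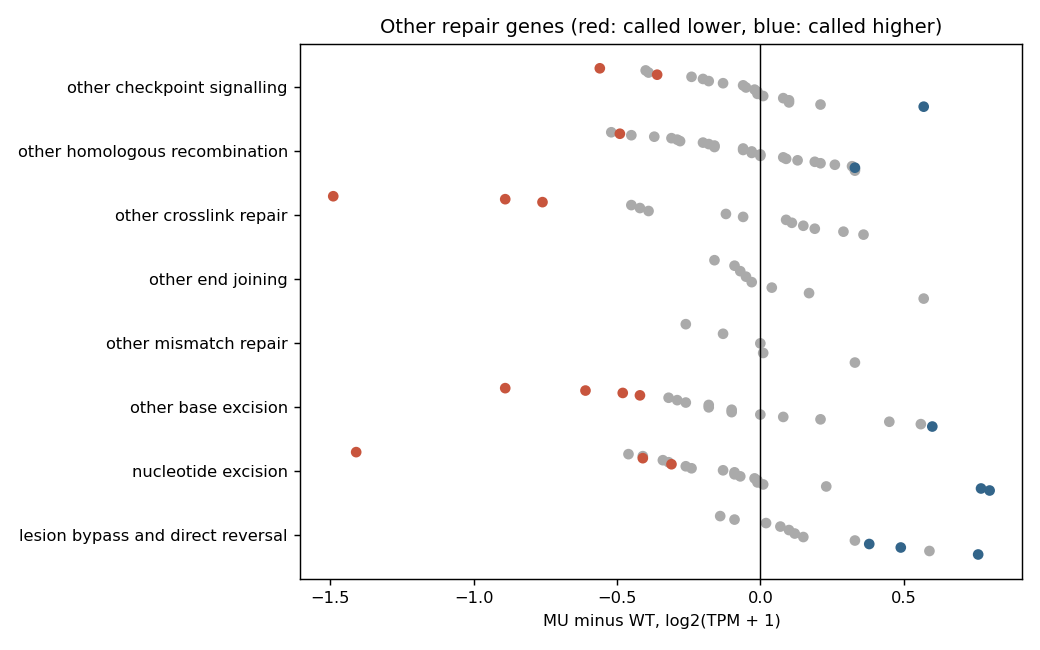
Difference between MU and WT in log2(TPM + 1) for 122 other repair genes, 1 point per gene, ordered by size within each list (position within a list has no other meaning). The lists of crosslink and nucleotide excision genes hold the points farthest to the left (Fancf at −1.49 and Ercc1 at −1.41). The lesion bypass list holds 3 genes called higher and 0 called lower, where 7.12% and 11.6% of all tested genes were.

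In base excision repair, Apex2, a relative of Apex1, was at 16.7, 16.3 and 16.8 TPM in WT against 8.18, 8.77 and 8.60 TPM in MU (difference −0.89, SE 0.09, limma adjusted p = 0.00212). Its neighbours on the X chromosome were lower too, by a median of −0.32. Fen1, the nuclease that trims displaced flaps, went from 61.7 ± 4.68 to 40.0 ± 0.739 TPM (limma adjusted p = 0.00564). Parp3, another polymerase of the PARP family, rose from 20.1 ± 3.12 to 30.8 ± 0.853 TPM (limma adjusted p = 0.0216).

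Crosslink repair held the largest fall of the wider set. Fancf, an adaptor of the Fanconi core complex (chromosome 7, 51860577 to 51862267), was at 33.4, 26.7 and 34.4 TPM in WT against 9.99, 11.1 and 10.5 TPM in MU. The mean fell by 66.6% (difference −1.49, SE 0.12, limma adjusted p = 0.00103). Fancb, another core subunit, fell from 12.9 ± 1.94 to 6.48 ± 0.148 TPM (limma adjusted p = 0.00706), and its neighbours on the X chromosome had a median of −0.39. Both genes were clear of overlap between groups. Fancf lies within Gas2 on the other strand. The sources used here do not say whether reads were counted by strand, so reads of such overlapping genes cannot be told apart. This also holds for Apex1 with Pip4p1, Msh6 with Fbxo11 and Ercc1 with Cd3eap. Fen1 with Tmem258, Apex2 with Alas2 and Pfkfb1, Parp3 with Rrp9, and Ddb2 with Acp2 are in the same position, among others.

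In nucleotide excision repair the calls went in both directions. Ercc1, which encodes the partner of the nuclease XPF and also serves crosslink repair (chromosome 7, 19344778 to 19356524), fell from 194, 235 and 157 TPM to 67.0, 74.8 and 74.2 TPM (difference −1.41, SE 0.15, limma adjusted p = 0.00236). Gtf2h1, a subunit of TFIIH, fell from 39.8 ± 1.23 to 31.9 ± 0.355 TPM (limma adjusted p = 0.0343). It did not pass in the authors' deposited table (log2 fold change −0.26, adjusted p = 0.0902). Ercc5, which encodes the nuclease XPG, rose from 13.5, 13.5 and 14.5 TPM to 26.2, 24.6 and 23.6 TPM (difference 0.80, SE 0.09, limma adjusted p = 0.00285). Ddb2, a damage sensor that p53 induces in human cells, rose from 3.38 ± 0.460 to 6.43 ± 0.385 TPM (limma adjusted p = 0.0132).

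Among the other calls, H2ax, the histone variant that is phosphorylated around breaks, rose from 92.4, 103 and 73.7 TPM to 131, 124 and 142 TPM (difference 0.57, SE 0.14, limma adjusted p = 0.0316). Cdc25a, the phosphatase that CHK1 restrains, fell from 29.6 ± 2.93 to 19.7 ± 2.24 TPM (limma adjusted p = 0.0215), and Mapkapk2, a stress-activated kinase, from 59.9 ± 3.16 to 46.5 ± 2.30 TPM (0.0297). The subunits of RPA, which coats single-stranded DNA, parted, with Rpa1 rising from 249 ± 7.88 to 314 ± 4.53 TPM and Rpa2 falling from 43.4 ± 4.41 to 30.4 ± 1.19 TPM (limma adjusted p = 0.0250 and 0.0193). Mgmt, which reverses alkylated guanine, rose from 3.11 ± 0.460 to 5.96 ± 0.916 TPM and Ube2b, a ubiquitin-conjugating enzyme of the bypass route, from 99.8 ± 12.2 to 140 ± 4.34 TPM (0.0227 and 0.0223). Ung, Apex2, Fen1, Fancf, Ercc1 and Ercc5 passed under all 19 alternatives, and Fancb under 18 of them. The other calls named from the wider set passed under 8 to 15 of the 19.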

How the data were processed

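A stranded poly(A) kit was used for all 6 libraries, per the labels' protocols. The submitters' processing notes name the build mm10 and, as tools, HISAT2 2.05.0, DESeq2 1.20.0, featureCounts 1.5.0-p3 and FastQC 0.11.4, with no settings. The authors deposited log2 values per gene and library, which are log2(TPM + 1) per the file headers and the values. In another table the authors deposited group mean TPM and, per gene, the log2 fold change with its raw and adjusted p-value. TPM keeps no depth, so depth is unknown and no counting interval was computed.

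Genes reaching 1 TPM in 3 or more of the 6 libraries were tested on log2(TPM + 1) with limma 3.58.1 in R 4.3.3 (moderated, intensity trend, two-sided, no covariate, Benjamini-Hochberg adjustment over 14209 genes). A difference on this scale understates the change of low genes. Calls are at an adjusted p under 0.05. Whether replicates were separate cultures is not stated, and p-values then reflect only sample-to-sample spread, which may be technical. Positions, GC content and the longest transcript come from GENCODE M21 (GRCm38, the assembly of mm10), matched by identifier for 55141 genes. H2ax and Abraxas1 were matched through RefSeq synonyms.

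Members and lists were chosen with earlier results of these data known. Values in every library are given for members called in at least 1 fit. From each wider list the 2 higher and 2 lower calls with the smallest adjusted p are named; any other gene was chosen after its values were seen. Alternatives were no filter, a minimum of 5 TPM, a pseudocount of 0.1 or 5, 3 other scalings, limma without trend or with robust estimation, a replicate block, a GC and length correction (loess, span 0.3), position centring on 20 neighbours on each side, and leaving out each library. Some items are not reported here.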

Additional observations from a re-analysis of the deposited data

How the results depend on the processing

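Of the 19 alternatives, Ung passed under 19, Msh6 under 15, and Chek1, Apex1 and Parp1 under 14 each, and no member that passed changed direction. The number of members called lower was 5, and 1 to 7 when a library was left out. The number called higher was 0, and 0 to 1 when a library was left out (Chek2, without WT replicate 3). Over all genes, 1655 were lower (637 to 2113 when a library was left out) and 1012 higher (354 to 1157). Rescaling without mtDNA-encoded genes moved the share of calls that were higher from 37.9% to 48.4%, while 5 members stayed called lower. Among the wider repair genes, 13 were lower (5 to 16 when a library was left out) and 8 higher (1 to 9). Of these genes 8 were lower after rescaling without mtDNA-encoded genes and 5 were higher with no filter. Same-numbered libraries of the groups did not deviate together (correlations of 0.050, 0.015 and −0.074). These values had no GC correction and rest on 3 libraries per group, so they cannot decide whether the numbers pair the libraries. A replicate block gave 1 member lower (Ung), 637 genes lower and 456 higher, and 6 wider genes lower and 1 higher. Chek1, Msh6, Apex1 and Parp1 did not pass with it. With the replicate block and the GC and length correction, 5 members were lower, 1187 genes lower and 800 higher, and 8 wider genes lower and 6 higher. The cause of these changes was not tested.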
